A study of Mus musculus with 17 samples.

Results

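The thalamic marker genes Tcf7l2, Prkcd, Lef1, Slc17a6, Zic1, Zic4, Calb2, Synpo2, Ramp3 and Plekhg1, were followed through bulk RNA sequencing of mouse dorsal hippocampus. They were taken by symbol from the count table, and all 10 of 10 were found among its 24498 gene symbols. The 17 libraries formed 6 groups. Males made up 4 of these, with 3 libraries each: WT PBS (replicates 791, 792 and 793), WT Tau (771, 772 and 773), KO PBS (751, 752 and 753) and KO Tau (711, 712 and 713). Females made up the remaining groups, WT Tau with 2 libraries (331 and 341) and KO Tau with 3 (314, 324 and 325), and no female group received PBS. KO mice lacked Acss2, the gene of an enzyme that turns acetate into acetyl-CoA, from birth and in every tissue, and WT controls came from the same colony. All mice were injected at 6 months of age, either with pathological tau extracted from the cortex of people with Alzheimer's disease (Tau) or with phosphate-buffered saline (PBS). Per the methods, the mice were studied 6 months after injection. RNA came from slices 1 mm thick, cut after perfusion with fixative, that were meant to hold the CA fields and dentate gyrus. Per the labels, the libraries are biological replicates.

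The thalamus lies beneath the dorsal hippocampus, with the habenula at its upper inner edge. Its relay neurons are excitatory, load their vesicles with glutamate through the transporter VGLUT2, and depend on the Wnt-pathway transcription factor TCF7L2 for their identity, whereas most hippocampal pyramidal and granule cells rely on VGLUT1. None of the 10 genes is exclusive to thalamus: Calb2 is also made by interneurons and Cajal-Retzius cells, Lef1 by brain endothelium, and Zic1 by meningeal and mural cells. Because the RNA was of bulk tissue, a lower level from fewer cells of a type and from less RNA per cell cannot be told apart.

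The promoters of 4 of the genes are shown because their levels ran closest together across the libraries: Prkcd with Plekhg1, and Zic1 with Zic4. Each is a RefSeq window on GRCm38.p6 from 250 bases before to 50 bases after a transcript start, read 5′ to 3′ on the gene's strand. The Prkcd window is chr14:30626159-30626458 (minus strand), the Plekhg1 window chr10:3872417-3872716 (plus strand), the Zic1 window chr9:91365719-91366018 (minus strand) and the Zic4 window chr9:91368722-91369021 (plus strand). Capitals mark CTTTGA or its reverse complement TCAAAG, the core letters bound by TCF and LEF factors such as the products of Tcf7l2 and Lef1.
Prkcd: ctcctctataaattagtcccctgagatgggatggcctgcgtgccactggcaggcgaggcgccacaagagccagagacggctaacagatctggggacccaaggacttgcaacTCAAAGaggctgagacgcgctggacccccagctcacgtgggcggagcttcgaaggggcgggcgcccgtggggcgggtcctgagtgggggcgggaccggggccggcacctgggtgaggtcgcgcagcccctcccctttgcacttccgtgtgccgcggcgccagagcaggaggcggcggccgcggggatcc
Plekhg1: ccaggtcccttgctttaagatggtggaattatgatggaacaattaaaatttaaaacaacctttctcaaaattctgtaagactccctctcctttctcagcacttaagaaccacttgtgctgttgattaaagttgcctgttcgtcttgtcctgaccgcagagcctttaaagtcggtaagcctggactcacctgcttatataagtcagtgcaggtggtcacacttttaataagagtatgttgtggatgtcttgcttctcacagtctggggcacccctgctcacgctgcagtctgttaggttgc
Zic1: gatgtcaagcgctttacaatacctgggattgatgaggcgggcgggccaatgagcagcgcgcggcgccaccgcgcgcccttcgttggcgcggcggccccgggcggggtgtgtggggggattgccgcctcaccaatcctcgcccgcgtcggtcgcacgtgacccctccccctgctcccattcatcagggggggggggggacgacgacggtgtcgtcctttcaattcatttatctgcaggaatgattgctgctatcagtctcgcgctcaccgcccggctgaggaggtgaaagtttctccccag
Zic4: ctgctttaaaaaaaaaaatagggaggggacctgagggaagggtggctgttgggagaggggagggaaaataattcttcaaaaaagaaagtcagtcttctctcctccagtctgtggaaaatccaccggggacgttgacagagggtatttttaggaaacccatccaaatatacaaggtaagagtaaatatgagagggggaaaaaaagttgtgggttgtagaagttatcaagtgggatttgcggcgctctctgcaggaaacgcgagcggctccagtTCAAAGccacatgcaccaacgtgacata
The letters were present in 16.0% of all 32851 RefSeq mouse windows of 300 bases, searched on both strands. Windows were listed for 9 of the 10 genes (15 windows, Calb2 without an entry), and 3 of those 15 windows held them, 1 each of Prkcd, Zic4 and Lef1. Counted in bases from the transcript start, the match lay at -139 for Prkcd and at 22 for Zic4, and the Lef1 window held matches at -180 and -120. The printed Plekhg1 and Zic1 windows held none. Zic1 and Zic4 are neighbours on chromosome 9 on opposite strands, with their RefSeq transcript starts 3204 bases apart.

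Libraries held between 14183131 and 22463635 counts. Levels are given as CPM, counts scaled to the library total. An observed 0 was taken to allow up to 3 counts, which equalled 0.134 to 0.212 CPM depending on the library. This bound covers counting error only. The genotype and sex labels were borne out by the counts: Acss2 ranged over 44.0 to 54.6 CPM in 8 WT and over 3.07 to 8.81 CPM in 9 KO libraries, while Xist had at most 2 counts in any male library and at least 12161 in every female library. The markers of hippocampal neurons varied between libraries. Summed levels of 9 dentate granule cell genes ran from 74.8 CPM in male KO PBS replicate 752 and 117 CPM in male KO Tau replicate 712 up to 569 CPM, and replicate 752 also had the highest summed level of 10 striatal genes (807 CPM, against 183 to 296 CPM in females). Summed levels of 12 choroid plexus genes reached 4109 CPM in male KO Tau replicate 713.

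None of the 10 genes was at 0 in any library, and the lowest count was 18, for Zic4. All 10 passed the filter on low counts in both fits described under the comparisons. Per kilobase of exon, averaged over the 17 libraries, Calb2 was highest at 14.2 CPM per kb (4.73 to 37.4 between libraries), followed by Slc17a6 at 10.4 (2.96 to 25.9), Prkcd at 9.11 (1.52 to 34.4) and Ramp3 at 7.69 (2.98 to 18.9). Plekhg1 stood at 3.36 CPM per kb (1.57 to 8.34), Zic1 at 3.01 (0.922 to 8.04), Tcf7l2 at 1.87 (0.415 to 7.97), Synpo2 at 0.779 (0.278 to 2.94), Lef1 at 0.702 (0.329 to 1.67) and Zic4 at 0.298 (0.104 to 0.644). Neighbours in this order often changed places between libraries, and the steps that held in every library were Ramp3 above Plekhg1 and Lef1 above Zic4.

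Tcf7l2 (ENSMUSG00000024985.19, chr19:55741820-55933654, plus strand) encodes the transcription factor that specifies excitatory thalamic and habenular neurons and also acts in maturing oligodendrocytes. It stood at 6.63, 6.25 and 3.64 CPM in male WT PBS and at 6.24, 5.38 and 5.49 CPM in male KO PBS. Under Tau it stood at 6.80, 19.8 and 4.38 CPM in male WT and at 19.1, 8.81 and 5.03 CPM in male KO. Replicates 772 and 711 were thus the male libraries with high Tcf7l2, each in a group whose other libraries stood at 8.81 CPM or less. Female WT Tau gave 69.9 and 30.3 CPM and female KO Tau 6.77, 37.9 and 36.6 CPM, so that 4 female libraries lay above all 12 male libraries and replicate 314 lay among the males.

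Lef1 (ENSMUSG00000027985.14, chr3:131110471-131224356, plus strand) encodes a DNA-binding factor of the same family. Its male levels were narrow, from 2.89 CPM in KO PBS replicate 751 to 5.61 CPM in WT Tau replicate 771, and the means were 4.50 ± 0.371 (WT PBS), 5.14 ± 0.703 (WT Tau), 4.09 ± 1.26 (KO PBS) and 4.54 ± 1.04 CPM (KO Tau; all SD, n = 3). Females gave 13.8 and 6.68 CPM in WT Tau and 4.51, 10.4 and 14.7 CPM in KO Tau. As for Tcf7l2, replicate 314 was the only female library inside the male range.

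The Zic genes encode zinc finger transcription factors active in the developing thalamus and cerebellum. Zic1 (ENSMUSG00000032368.14, chr9:91358058-91365810, minus strand) stood at 40.7, 5.42 and 5.25 CPM in male WT PBS, 10.9, 20.9 and 6.05 CPM in male WT Tau, 5.58, 9.73 and 11.9 CPM in male KO PBS and 14.5, 10.9 and 8.66 CPM in male KO Tau. A single library, WT PBS replicate 791, set the male maximum and lay 7.75-fold above the lowest male library, which was of its own group. In females Zic1 stood at 41.7 and 21.2 CPM (WT Tau) and at 8.11, 45.8 and 24.4 CPM (KO Tau). Zic4 (ENSMUSG00000036972.14, chr9:91362413-91389348, plus strand) was the least abundant of the 10 genes, from 1.07 CPM in WT PBS replicate 793 to 6.66 CPM in female WT Tau replicate 331. Its male KO Tau libraries were close together, at 3.09, 3.07 and 2.92 CPM, whereas male WT PBS spread over 3.51, 1.65 and 1.07 CPM and male WT Tau over 2.45, 4.66 and 1.57 CPM. Exons of Zic1 and Zic4 share 60 bases on opposite strands. The methods state that reads were counted by strand, but the library kit named there is not given as a directional kit. Reads over these bases may therefore not be told apart.

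Slc17a6 (ENSMUSG00000030500.6, chr7:51622006-51671119, plus strand) encodes VGLUT2. It stood at 45.7, 51.0 and 40.4 CPM in male WT PBS, 47.9, 67.1 and 35.4 CPM in male WT Tau, 21.7, 37.4 and 53.2 CPM in male KO PBS and 30.8, 69.6 and 38.2 CPM in male KO Tau. The highest male library was KO Tau replicate 712, not replicate 711, in which Tcf7l2 was high. Females spanned both ends of the distribution, at 139.9 and 71.0 CPM in WT Tau and 16.0, 76.3 and 117 CPM in KO Tau, with replicate 314 the lowest of all 17 libraries.

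Prkcd (ENSMUSG00000021948.17, chr14:30595354-30626210, minus strand) encodes protein kinase C delta, a signalling kinase of dense thalamic expression. It stood at 35.9, 36.2 and 15.6 CPM in male WT PBS, 31.7, 53.9 and 24.0 CPM in male WT Tau, 33.4, 8.40 and 43.3 CPM in male KO PBS and 65.6, 12.6 and 22.7 CPM in male KO Tau. Within both male KO groups the libraries differed by 5.15-fold (KO PBS) and 5.20-fold (KO Tau) from lowest to highest. Females gave 100.9 and 73.4 CPM in WT Tau and 27.9, 191 and 82.2 CPM in KO Tau, and the range over all libraries, 22.7-fold, was the widest of the 10 genes.

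Plekhg1 (ENSMUSG00000040624.17, chr10:3740364-3967303, plus strand) encodes a protein with a pleckstrin homology domain, and Synpo2 (ENSMUSG00000050315.14, chr3:123076519-123236149, minus strand) an actin-binding protein. Plekhg1 followed Prkcd library by library: replicates 752 (13.7 CPM) and 712 (15.1 CPM) were the lowest of all 17 libraries, replicate 711 the highest male (42.5 CPM) and replicate 324 the highest female (72.9 CPM). Synpo2 was the gene whose females stood furthest apart. Its 12 male libraries ran from 3.64 to 8.83 CPM (median 4.73 CPM), the upper end being replicates 711 (8.83 CPM) and 772 (8.05 CPM). Its females stood at 23.4 and 17.6 CPM in WT Tau and at 11.8, 38.5 and 18.3 CPM in KO Tau, all above every male, replicate 314 included.

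Calb2 (ENSMUSG00000003657.9, chr8:110137502-110168210, minus strand) encodes the calcium-binding protein calretinin. It stood at 46.1, 15.6 and 24.3 CPM in male WT PBS, 17.8, 33.4 and 14.4 CPM in male WT Tau, 23.0, 16.4 and 17.9 CPM in male KO PBS and 12.9, 24.5 and 14.9 CPM in male KO Tau. Females gave 65.2 and 23.8 CPM in WT Tau and 8.25, 15.7 and 46.3 CPM in KO Tau, so that the female range enclosed the male range. Calb2 was the single gene in which the female groups were not the highest pair of group means, male WT PBS coming between them. In male WT PBS replicate 791 the high Calb2 and Zic1 went with Cbln1, which encodes a secreted synapse organizer, at 67.1 CPM, against 28.3 CPM or less in the other 16 libraries. Reln, a Cajal-Retzius and interneuron gene, stood at 106 CPM there, against 95.6 CPM or less elsewhere. The mean log2 CPM of the 7 Cajal-Retzius genes, Calb2 not among them, was 2.00 there, the highest of the males (next 1.38, replicate 772). Only female replicates 325 (2.26) and 331 (2.14) stood higher, and these also had the highest Calb2 levels (46.3 and 65.2 CPM). The part of such cells in the Calb2 level of replicate 791 was not tested.

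Ramp3 (ENSMUSG00000041046.7, chr11:6658521-6677475, plus strand) encodes an accessory protein that shapes the ligand preference of the calcitonin receptor-like receptor. It stood at 9.26, 7.39 and 6.38 CPM in male WT PBS, 4.89, 9.75 and 8.32 CPM in male WT Tau, 4.11, 9.67 and 4.26 CPM in male KO PBS and 8.33, 16.3 and 12.2 CPM in male KO Tau. Male KO Tau was the highest male group and male KO PBS the lowest, with KO PBS replicate 752 inside the KO Tau range. Females gave 21.8 and 14.2 CPM in WT Tau and 4.51, 26.0 and 13.0 CPM in KO Tau.

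**Figure D1:**
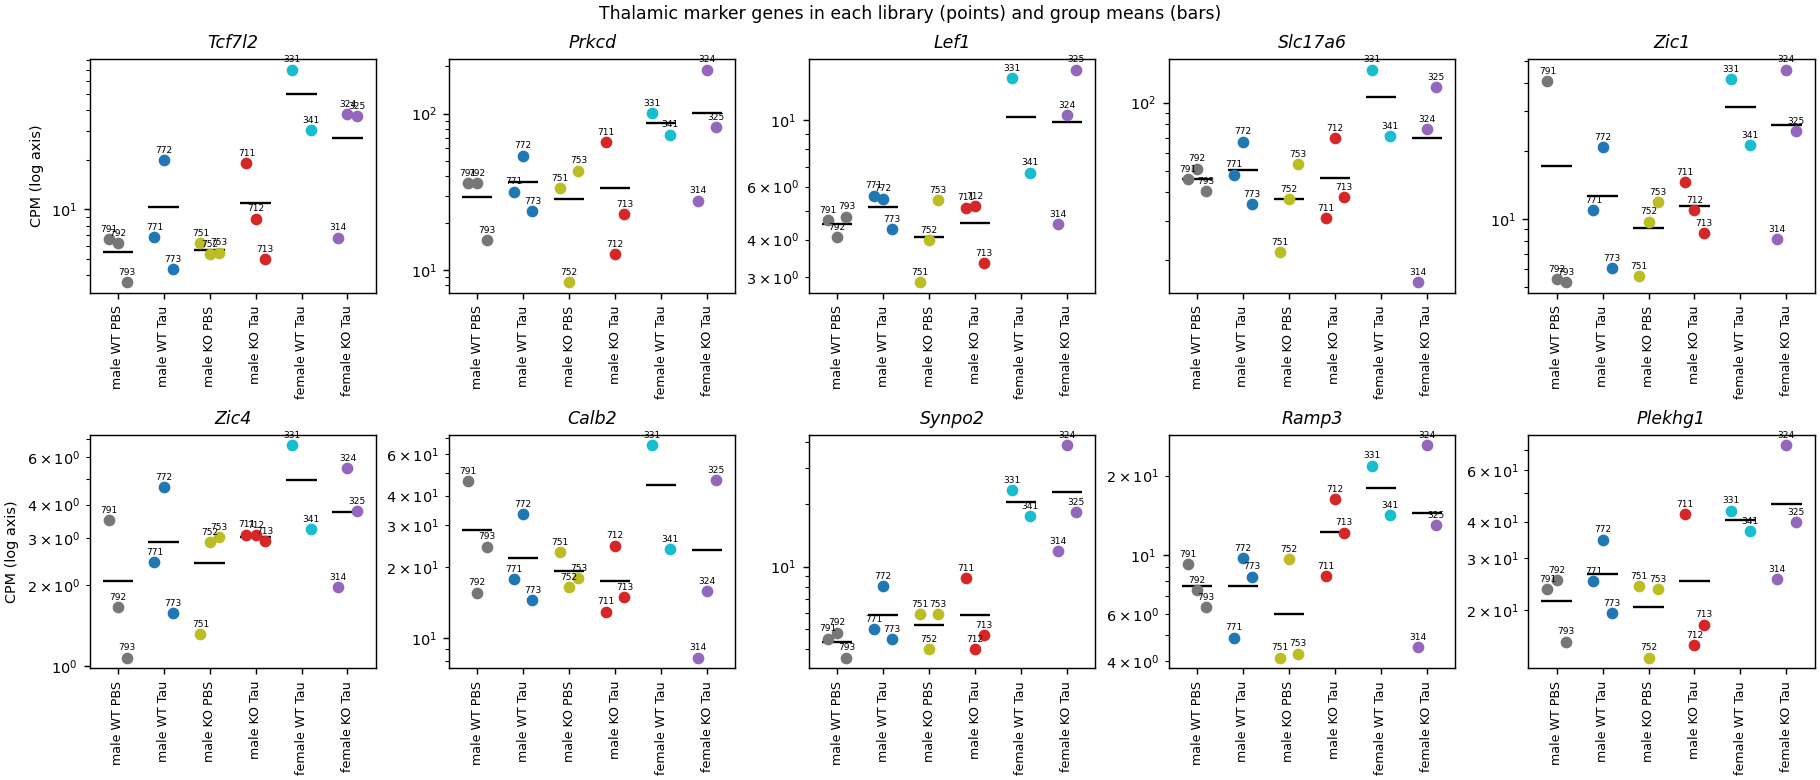
Level of each of the 10 genes in each of the 17 libraries, in CPM on a log axis; points are libraries labelled with their replicate number, coloured by group, and bars are group means. Group ranges of males overlap in every panel, and 4 of the 5 female libraries tend to lie high while replicate 314 lies within or below the male range except in Synpo2.

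Ranked by their means, most neighbouring groups overlapped. Groups farther apart could separate: female WT Tau lay above every male library in Tcf7l2, Prkcd, Lef1, Slc17a6 and Synpo2. In Synpo2 female KO Tau did so as well. For 9 of the 10 genes both female groups had the highest means, but 47 of the 50 pairs of neighbouring groups in these orders overlapped in their libraries. The pairs that did not were female WT Tau over male WT Tau in Prkcd, Synpo2 and Plekhg1. Among the male groups, none of the 60 combinations of a gene and a pair of groups was free of overlap. Over all genes, 9.01% to 14.4% were free of overlap in the male pairs that were fitted. This share was not computed for male WT Tau with male KO PBS or for either female group against all males. Nor was it computed for the order of group means or for the neighbour counts. Under Tau, 23.8% of all genes were called between females and males in the fits described under the comparisons.

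Summed over the 10 genes, levels ran from 112 CPM in male KO PBS replicate 752 to 527 CPM in female WT Tau replicate 331. The males ran from 112 to 258 CPM with a median of 158 CPM, replicates 772 (258 CPM), 791 (220 CPM) and 711 (211 CPM) being the highest. Each of these came from a different group: WT Tau, WT PBS and KO Tau. Female replicates 341 (299 CPM), 325 (397 CPM), 324 (520 CPM) and 331 lay above all males, and replicate 314 (115 CPM) was the second lowest of all 17. Replicates of the same group therefore differed widely. The SD of log2 CPM within groups had a median of 0.74 over the 10 genes, against 0.20 over the 14079 genes with a mean of at least 1 CPM. From 91.8% (Lef1) to 99.0% (Zic1 and Prkcd) of those genes varied less within groups than the respective marker gene.

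The 10 genes did not all vary in the same libraries. Correlations are given as descriptions over 17 libraries that share group, sex and dissection, and without a test. Over the 45 pairs of genes Pearson's r of log2 CPM ran from 0.20 to 0.97 with a median of 0.69, and 34 pairs exceeded 0.5. Prkcd and Plekhg1, whose promoters are printed above, had r = 0.97 (0.93 by Spearman's rank correlation), and 0.96 without replicates 324 and 752, the libraries farthest from the median of Prkcd. Zic1 and Zic4 had r = 0.90 (0.96 by rank), and 0.85 without replicates 324 and 331.

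Taking only the 12 males and removing group means parted the genes further. Prkcd, Plekhg1, Synpo2 and Tcf7l2 still ran together, with r = 0.95 for Prkcd and Plekhg1, 0.91 for Prkcd and Synpo2 and 0.61 for Prkcd and Tcf7l2. Slc17a6, Lef1, Calb2 and Ramp3 did not run with Prkcd there (r = -0.13, 0.14, 0.04 and -0.58), and the median over the 45 pairs was 0.34. Lef1 and Slc17a6 had r = 0.65 with each other in these males. In the male libraries 752 and 712 Prkcd and Plekhg1 were at their lowest, whereas Ramp3 (9.67 and 16.3 CPM) was the highest of its group in each and Slc17a6 (69.6 CPM) was the male maximum in replicate 712. These were also the libraries with the least dentate granule cell RNA.

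**Figure D2:**
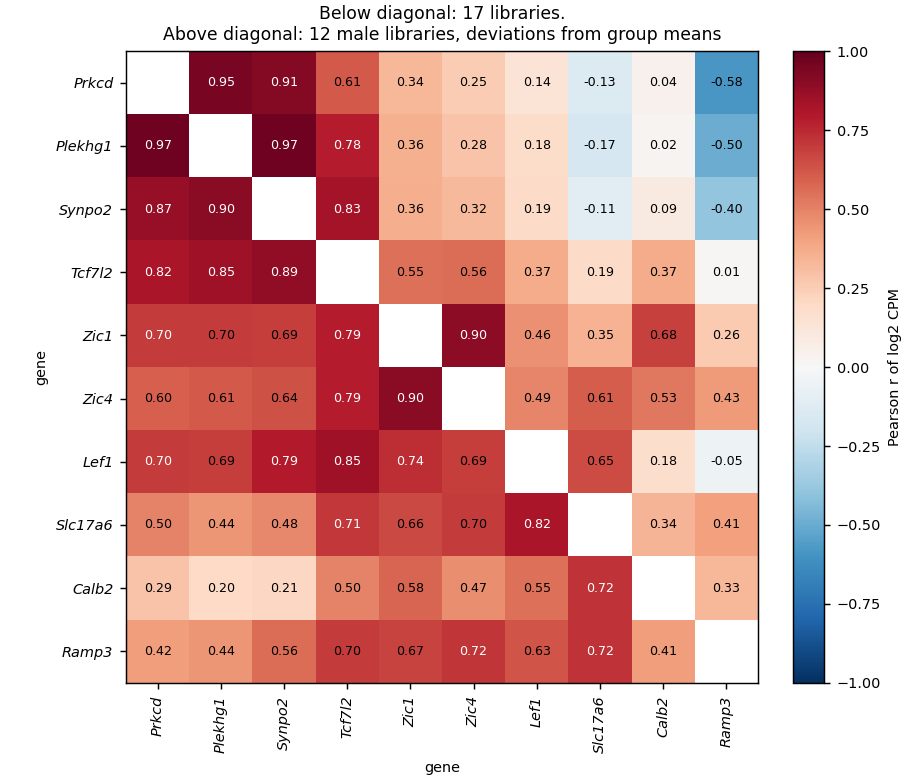
Pearson's r of log2 CPM between the 10 genes, over 17 libraries below the diagonal and over deviations from group means in 12 male libraries above it. Prkcd, Plekhg1, Synpo2 and Tcf7l2 form a block on both sides (0.95 for Prkcd and Plekhg1 in males), while Ramp3 with Prkcd falls from 0.42 to -0.58.

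The study was designed to ask how loss of Acss2 and injected tau act together, and the male groups were compared first. Fold changes were fitted with edgeR on all genes of the 12 male libraries (15098 tested, calls at an adjusted p, the false discovery rate or FDR, under 0.05). These comparisons share groups with each other. No marker gene was called in any of them, and few genes were called at all.

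Male KO Tau against male WT PBS called 0 of the 10 genes, against 0.00662% of all genes (1 of 15098, with 956 genes at an unadjusted p under 0.05). No marker gene was free of overlap, against 14.4% of all genes. Log2 fold changes ran from -0.70 (Calb2) to 0.99 (Tcf7l2), 8 of 10 were above 0 and the median was 0.22, against -0.0032 over all genes. The smallest FDR among the marker genes was 0.817, and leaving out each library in turn moved their median between -0.04 (without replicate 711) and 0.48, and voom with quality weights gave -0.14.

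Male KO Tau against male WT Tau, the comparison of genotypes under tau, called 0 of 10 against 0.00662% of all genes (711 genes at an unadjusted p under 0.05). Libraries overlapped for all 10, while 12.6% of all genes had none. The fold changes were small for most, from -0.30 (Calb2) to 0.70 (Ramp3), with a median of -0.07 and a smallest FDR of 0.927. The sign of this median was not stable, since leaving out each library gave -0.30 to 0.30.

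Male KO Tau against male KO PBS, the effect of tau in mice without Acss2, called 0 of 10 marker genes and 0% of all genes in edgeR, although 1201 genes had an unadjusted p under 0.05. DESeq2 called 36 genes and no marker gene. Ramp3 was the only marker gene at an unadjusted p under 0.05, with a log2 fold change of 0.99 (SE 0.36, adjusted p = 0.554 in the quasi-likelihood test of edgeR). Its KO PBS and KO Tau libraries overlapped through replicate 752, and 9.01% of all genes were free of overlap in this comparison. The other 9 fold changes ran up to 0.89 (Tcf7l2) from -0.18 (Calb2), and the median over the 10 was 0.25. It lay between 0.03 (without replicate 711) and 0.50 when each library was left out, and voom with quality weights gave -0.12.

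Male KO PBS against male WT PBS, the genotypes without tau, called 0 of 10 against 0.00662% (667 genes at an unadjusted p under 0.05), and none was free of overlap, against 11.7%. The median log2 fold change was -0.05 (-0.24 to 0.11 when each library was left out), and the most negative value, -0.85 (SE 0.71) for Zic1, came from a comparison in which WT PBS replicate 791 lay far above the remaining 5 libraries. Male WT Tau against male WT PBS called 0 of 10 and 0% of all genes in edgeR (281 at an unadjusted p under 0.05; DESeq2 called 0), with no marker gene free of overlap against 12.2%. Here the values ran from -0.45 (Zic1) to 0.88 (SE 0.56, Tcf7l2), the latter with 19.8 CPM in replicate 772 alone above the PBS range by more than 1 CPM.

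The genotype by treatment interaction in males called 0 of 10 and 0% of all genes in edgeR (631 at an unadjusted p under 0.05; DESeq2 called 0). Its largest value among the marker genes was for Ramp3, at 1.01 (SE 0.51, FDR 0.996), and the median was -0.01 (-0.20 to 0.38 when each library was left out).

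In females the genotypes could be compared under Tau only, in a fit of the 11 Tau libraries of both sexes (15419 genes tested). Female KO Tau against female WT Tau called 0 of 10 against 0.00649% of all genes (446 at an unadjusted p under 0.05), and none of the 10 was free of overlap against 16%. Fold changes ran from -0.89 (SE 0.60, Calb2) to 0.26 (Prkcd), with a median of -0.23 that lay between -0.66 and 0.27 when each library was left out. Replicate 314 was the lowest KO Tau library in all 10 genes. The sex by genotype interaction under Tau called 0 of 10 and 0% of all genes in edgeR (454 at an unadjusted p under 0.05; DESeq2 called 1 gene), with values from -0.95 (Ramp3) to 0.35.

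**Figure D3:**
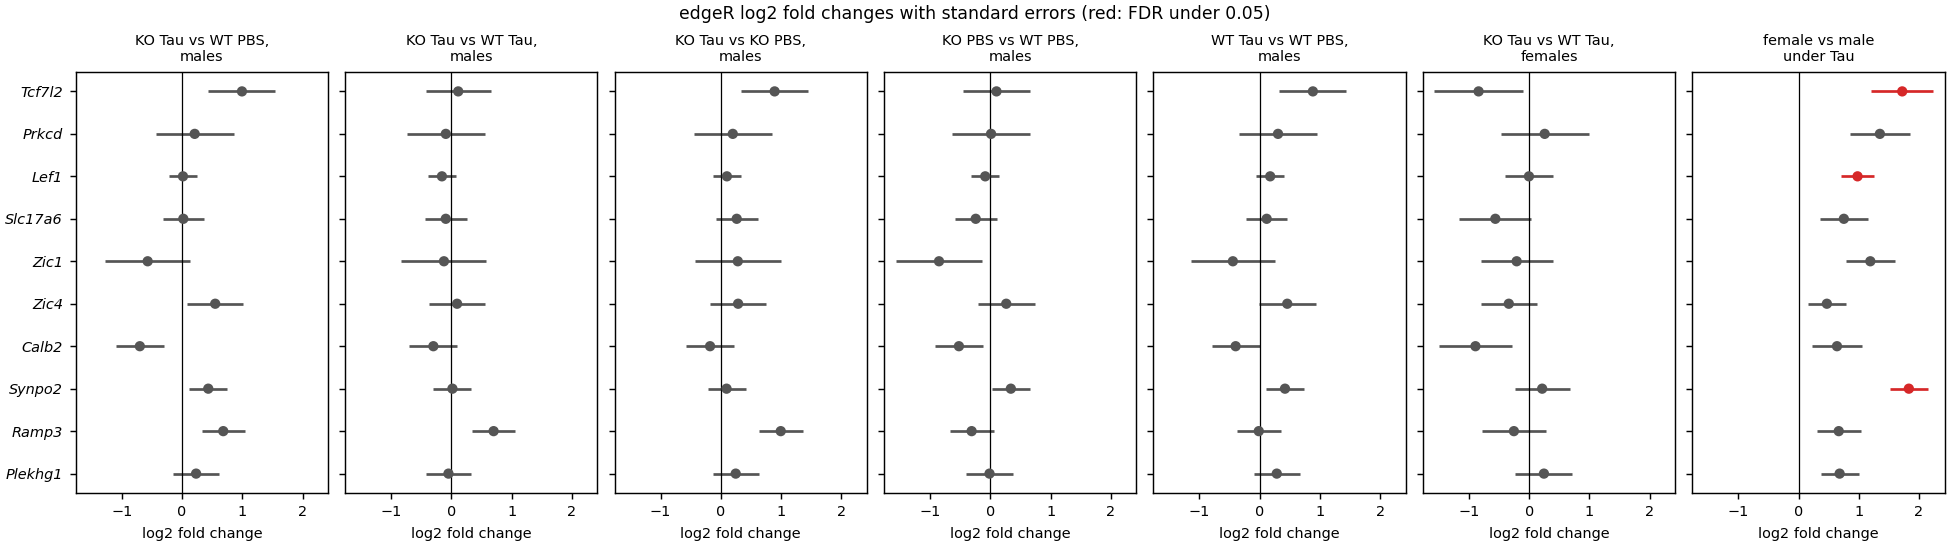
Log2 fold changes (points) and their standard errors (lines) of the 10 genes in edgeR for 5 comparisons of male groups, the female genotypes under Tau, and females against males under Tau; red marks an FDR under 0.05. No gene is red in the first 6 panels, while all 10 lie above 0 and 3 are red (Tcf7l2, Lef1 and Synpo2) in the last.

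Females against males under Tau, averaged over genotype, was a contrast added after the values had been seen. It called 3 of the 10 genes, all higher in females, against 23.8% of all 15419 genes (1757 higher and 1917 lower), so that the share called was near that of genes in general. All 10 estimates were above 0, with a median of 0.87 against -0.01 over all genes. Synpo2 was higher in females by 1.83 on the log2 scale (SE 0.32, FDR 0.00655 in edgeR), and its libraries did not overlap, which held for 6.76% of all genes in that direction. Tcf7l2 was higher by 1.72 (SE 0.51, FDR 0.0341) and Lef1 by 0.98 (SE 0.27, FDR 0.0273), both with overlapping libraries. Prkcd at 1.35 (SE 0.49, FDR 0.0669) and Zic1 at 1.19 (SE 0.41, FDR 0.0556) missed the threshold, and the other 5 genes stood at 0.47 to 0.75.

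Single libraries weighed on these calls. Leaving out female KO Tau replicate 314 raised the number called to 7 of 10, and leaving out male KO Tau replicate 711 raised it to 6. Leaving out any of replicates 324, 325, 331, 713, 771 and 773 lowered it to 1. Calls over all genes moved as well, from 628 without replicate 331 to 6290 without replicate 711, against 3674 in the main fit. The changes in marker calls were thus not particular to these genes. Synpo2 was called in 16 of 16 alternatives, whereas Tcf7l2 and Lef1 were called in 9 of 16, Zic1 in 5 and Prkcd in 3. The labels separate these libraries by sex and by replicate number, with females at 314 to 341 and males at 711 to 773. What the numbers stand for is not stated. Sex cannot be told apart from any other way in which the female libraries may have been handled.

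Another list of 16 genes known from thalamic nuclei was read beside the 10. Like the markers, it was chosen with earlier results of these data known, so the r values of the 16 genes are descriptions only. Their mean log2 CPM followed that of the 10 marker genes with r = 0.98 over the 17 libraries (0.96 by rank), with r = 0.96 without replicates 324 and 331, and with r = 0.92 in the 12 males. Shox2, a transcription factor of thalamic neurons, stood at 5.53 CPM in male WT Tau replicate 772 and 4.92 CPM in male KO Tau replicate 711, the male libraries with the most Tcf7l2, and at no more than 1.57 CPM in the other 10 males. In females it stood at 31.3 and 9.21 CPM (WT Tau) and at 1.06, 29.0 and 28.4 CPM (KO Tau), again with replicate 314 at the male level. Tnnt1, a troponin gene with thalamic expression, gave 8.44 CPM in replicate 772, 9.90 CPM in replicate 711 and at most 3.81 CPM in the other males. Gbx2, a homeobox gene of the embryonic thalamus, reached 3.29 CPM in replicate 772 and was at 0 in replicate 773 of the same group. Other genes of the list peaked elsewhere. Rora (104 CPM), Plcb4 (107 CPM) and Cacna1g (112 CPM) had their highest male levels in KO PBS replicate 752. The summed level of the 16 genes was also highest among males there (524 CPM), whereas that of the 10 marker genes was lowest (112 CPM). The r values above used mean log2 CPM, in which each gene weighs alike.

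None of the 16 genes was called in the male comparisons, the female genotype comparison or the interactions. In females against males under Tau, 7 of 16 were called higher and 1 lower, against 23.8% of all genes in either direction, with a median of 0.91. The largest changes were 3.08 for Shox2 (SE 0.84, FDR 0.0255) and 2.37 for Slitrk6 (SE 0.52, FDR 0.0129), which encodes a neuronal membrane protein. The gene called lower was Cbln1, at -1.55 (SE 0.45, FDR 0.0304).

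**Figure D4:**
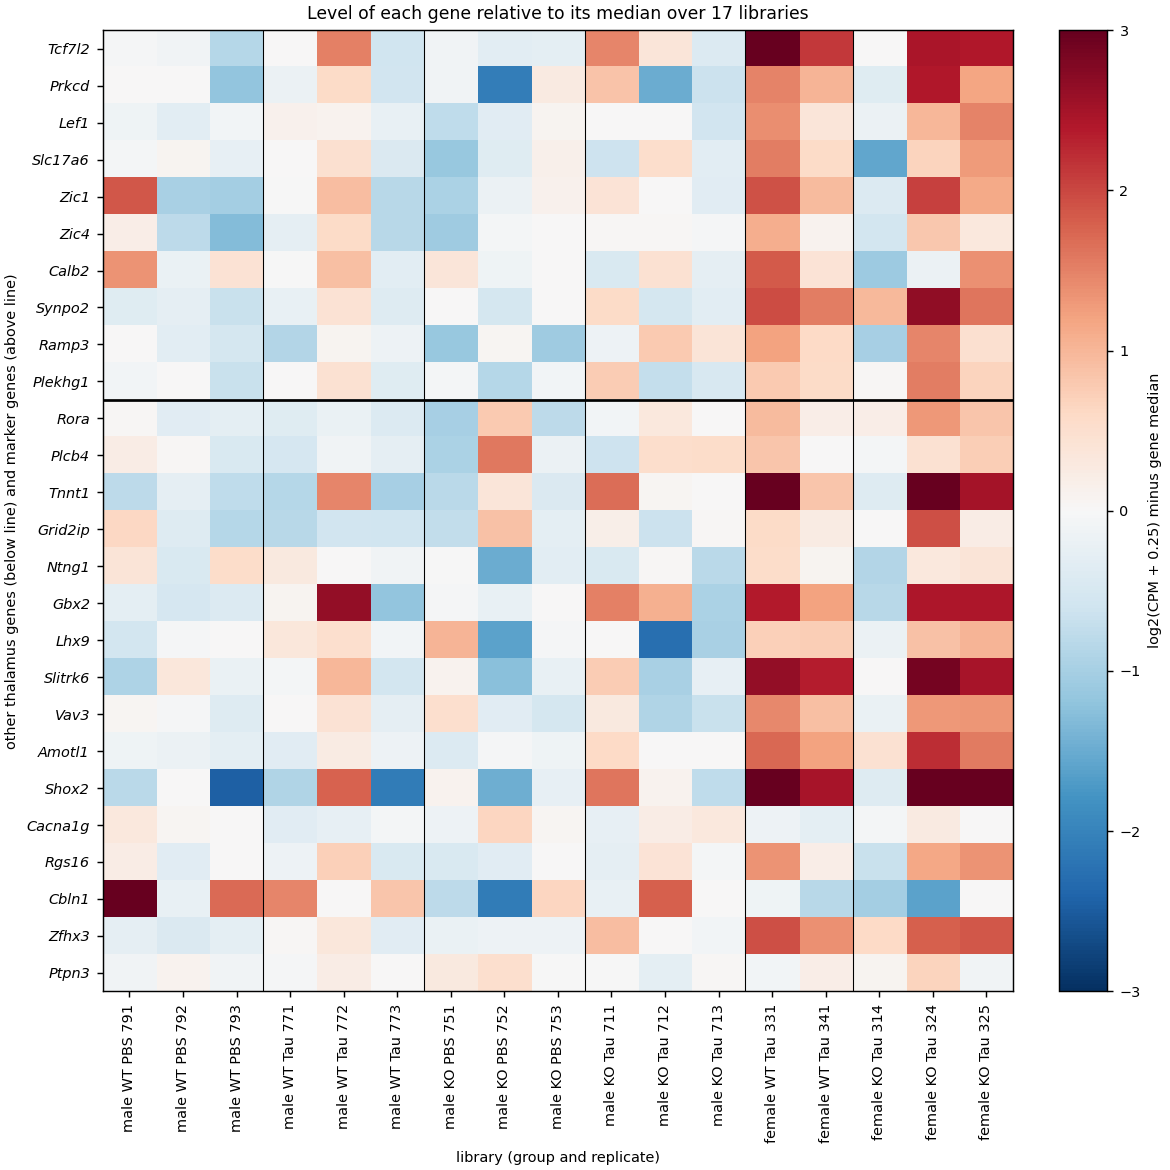
Colour shows log2(CPM + 0.25) of each gene minus its median over the 17 libraries, for the 10 marker genes above the line and 16 other thalamus genes below it, with libraries in columns by group. Replicates 772 and 711 among males and 331, 341, 324 and 325 among females are high for Tcf7l2, Shox2 and Tnnt1, and replicate 314 is not. Rora, Plcb4 and Cacna1g are instead highest among males in replicate 752.

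Markers of other regions and cells moved with the 10 genes to differing degrees. The habenula list did not follow them (r = -0.07 of the mean log2 CPM over 17 libraries), and of its 8 genes Chat and Chrnb4 were too low to be tested in either fit and Pou4f1 in the male fit. Pou4f1, the defining habenular factor, was at 5.97 CPM in female replicate 325, 2.30 CPM in male replicate 752 and 1.22 CPM in female replicate 331, and at 0.67 CPM or less in the other 14 libraries. Choroid plexus genes did not follow them either (r = -0.11), and their highest library, male replicate 713, had a summed marker gene level of 130 CPM. Mural cell genes ran with them (r = 0.80), as did endothelial genes (r = 0.79), Cajal-Retzius genes (r = 0.80) and oligodendrocyte genes (r = 0.65), and genes of inhibitory neurons ran the other way (r = -0.62). Within the 12 males these values were lower in size, at 0.54 for mural cells, 0.49 for endothelium, 0.70 for Cajal-Retzius cells, 0.46 for oligodendrocytes and -0.35 for inhibitory neurons, whereas the other thalamus genes stood at 0.92. Among the Tau libraries, 5 of 8 mural and 5 of 9 endothelial genes were called higher in females and 5 of 8 inhibitory neuron genes lower, against 23.8% of all genes in either direction. Of the Cajal-Retzius genes 3 of 7 were called higher and 1 lower, while 3 of 10 neocortex genes, 1 of 6 tested habenula genes and 1 of 6 CA1 genes were called lower, and 1 gene each of the striatum, hypothalamus, meninges and oligodendrocyte lists higher. No gene of the dentate granule cell, CA3 or choroid plexus lists was called in edgeR (1, 0 and 4 genes, in that order, at an unadjusted p under 0.05). The summed inhibitory neuron level was 523 to 741 CPM in the 5 females and 666 to 1608 CPM in the 12 males, and the summed mural level 206 to 337 and 139 to 232 CPM. The summed Cajal-Retzius level was lower in females, with a median of 59.2 CPM (44.2 to 73.3) against 79.3 CPM (50.3 to 126) in males. Reln, of that list, stood at 29.1 to 47.8 CPM in females and 34.8 to 106 CPM in males. Trp73, also of that list, stood at 1.18 to 3.01 CPM in females and 0.625 to 5.03 CPM in males. The r values above used mean log2 CPM, in which each gene of a list weighs alike. The part of these cells in the levels of the 10 genes was not tested.

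**Figure D5:**
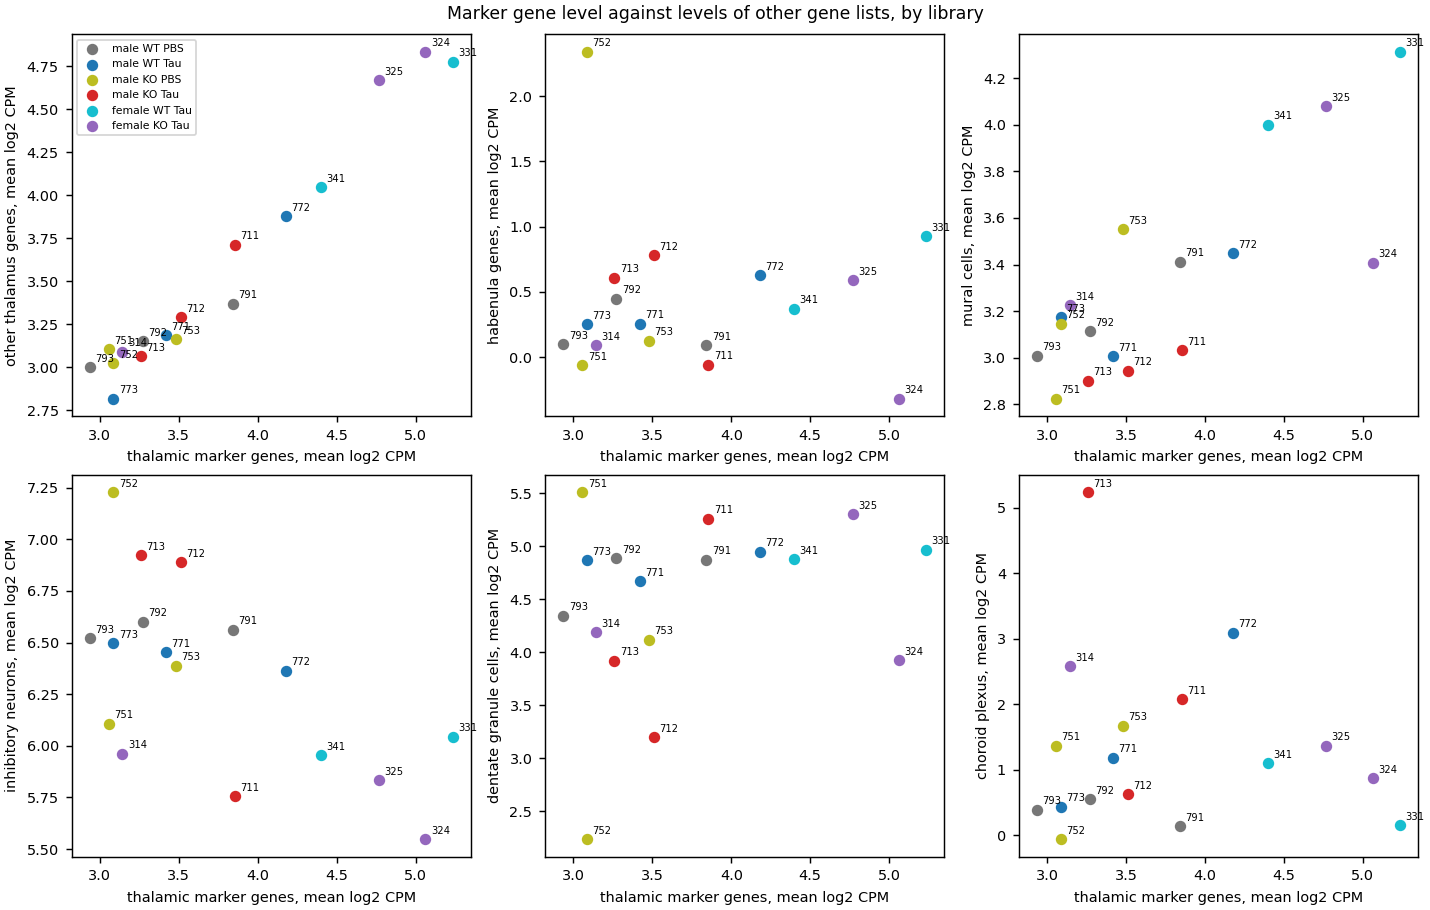
Mean log2 CPM of the 10 thalamic marker genes (horizontal) against that of 6 other gene lists (vertical), with a point for each library labelled by replicate and coloured by group. The 16 other thalamus genes rise with the marker genes (r = 0.98), the habenula and choroid plexus lists do not (r = -0.07 and -0.11), and replicates 752 and 713 stand apart in the habenula and choroid plexus panels.

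Over all genes with a mean of at least 1 CPM, those whose log2 CPM ran closest to Prkcd over the 17 libraries, beside the marker genes, were Itpkb (r = 0.93), Sash1 (0.92), Cldn19 (0.92), Smpd2 (0.91), Gfap (0.91), Serpinf2 (0.90), Ivd (0.90), LOC100504703 (0.90), Slitrk6 (0.90) and Ccdc190 (0.90). Slitrk6 is the single gene of these on the thalamus list. By list, the median r with Prkcd was 0.68 for oligodendrocytes, 0.67 for CA3 cells and 0.63 for the other thalamus genes. It was 0.55 for dentate granule cells and 0.43 for CA1 cells, against 0.14 over all genes. Inhibitory neurons (-0.73), neocortex (-0.49), striatum (-0.42) and habenula (-0.42) went the other way. Over deviations from group means, the lists named first stood at 0.68, 0.67, 0.45, 0.62 and 0.62, in that order. Gfap, the intermediate filament gene of astrocytes, ranged from 156 to 2632 CPM, and its r with Prkcd was 0.95 over deviations from group means in the 12 males. Plekhg1 ranked closest to Prkcd of all 14079 genes, Synpo2 stood at place 55 and Tcf7l2 at place 268, whereas Calb2 stood at place 5904 (r = 0.29).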

How the data were processed

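Poly(A) RNA of dorsal hippocampus was sequenced as 17 libraries. Per the methods and labels, the authors aligned reads with STAR 2.5.2 to mm10 (GRCm38), counted them over exons with HTSeq 0.9.1 in reverse-stranded mode and deposited raw counts per gene symbol, without normalization. Near-identical gene copies may share or lose reads under such symbols. Coordinates and exonic lengths came from GENCODE on GRCm38.

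The test was edgeR 4.0.16 (R 4.3.3), quasi-likelihood, on the counts as deposited (TMM factors, filterByExpr with minimum count 10 and minimum total 15, Benjamini-Hochberg adjustment over all genes tested, threshold 0.05). Male contrasts came from 1 fit of 12 male libraries, the others from 1 fit of 11 Tau libraries. CPM are counts scaled to the library total. Log2 CPM used a prior count of 2. The script was tested on simulated data. Alternatives were the DESeq2 1.42.0 Wald test, RLE factors, no filter, voom with quality weights in limma 3.58.1, fits of only the groups compared or of all 17 libraries, and each replicate left out. Depth, with totals from 14183131 to 22463635 counts, limits the least abundant gene, Zic4, most.

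The marker genes and other gene lists were chosen with earlier results of these data known. All 10 marker genes are named with their levels. A fold change is named for those at an unadjusted p under 0.05 or without overlap, and otherwise for the ends of the range and the values beside them. The 10 genes closest to Prkcd are named by Pearson's r.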

Additional observations from a re-analysis of the deposited data

How the results depend on the processing

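No marker gene was called in any of 140 combinations of a comparison and an alternative setting. These covered the 8 comparisons within males, within females and of the interactions. Comparisons shared fits, so the combinations were not independent. Counts of all genes called changed in some: DESeq2 called 15 in male KO Tau against WT PBS, 4 in KO Tau against WT Tau, 36 in KO Tau against KO PBS, 2 in KO PBS against WT PBS and 1 in the sex by genotype interaction. Voom called 11 in KO Tau against WT PBS and 2 in KO Tau against WT Tau, and the fit of all 17 libraries called 3 in KO Tau against WT PBS. In the female genotype comparison the fit of only the groups compared called 0, and leaving out a replicate gave 0 to 1 (0 without replicate 324 or 331). The cause of these changes was not tested.

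For females against males under Tau, voom with quality weights called 6189 genes and 6 marker genes. Leaving out a replicate gave 628 genes (without female WT Tau replicate 331) to 6290 (without male KO Tau replicate 711), and 1 to 7 marker genes. The cause was not tested. The calls of Tcf7l2 and Lef1 were each lost in 7 of 16 alternatives, while Prkcd and Zic1 gained one in 3 and 5. No called value changed sign. The medians of the marker genes, which carry no test, did: voom gave -0.14 for male KO Tau against WT PBS, -0.12 for KO Tau against KO PBS and 0.03 for KO PBS against WT PBS. No paired analysis was possible because the labels give no replicate number shared between groups. With 2 or 3 libraries a group and a wide spread within groups, the changes estimated for the marker genes in the comparisons within males and within females were not separated from that spread.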
